A study of Mus musculus with 4 samples.

Results

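Astrocytes lying against blood vessels were compared with astrocytes of the same coverslips lying away from them, in brain sections of mice at postnatal day 5. Cells were selected on their counts and positions: astrocytes had at least 5 counts of Slc1a3, at least 3 of Aqp4 and fewer than 5 of Cldn5, and vessel cells had at least 8 counts of Cldn5 and at least 1 of Pecam1. Of 794833 cells with 20 or more gene counts, 69012 were astrocytes and 40052 were vessel cells. An astrocyte was called near when its centre lay within 15 coordinate units of the closest vessel-cell centre, and far when that distance was 40 to 100 units; the length of a unit is not given in the sources used here. The near group held 7143 astrocytes (1400, 1367, 1719 and 2657 on coverslips 1 to 4) and the far group 31373 (7026, 7167, 6616 and 10564).

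The tissue was measured by MERFISH, which images barcoded RNA molecules of a fixed gene panel inside segmented cells. Each of the 4 coverslips carried coronal brain sections of 10 µm thickness, 1 from a wild-type mouse and 1 from a Cx3cl1(-/-) mouse, both male on coverslips 1 and 2 and both female on coverslips 3 and 4. All mice had been lesioned at the whiskers of the right snout at postnatal day 4, 24 h before collection, so no unlesioned group exists. The files do not mark genotype, hemisphere or region; near and far sums therefore pool both genotypes, and although the labelled tissue is barrel cortex, astrocytes were taken from whole sections.

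Astrocytes extend endfeet that ensheathe brain vessels, and the water channel Aqp4 is concentrated in them. Astrocytes also form the glia limitans under the brain surface, where the intermediate filament protein Gfap is abundant. Endothelial cells of the brain receive Wnt signals through frizzled receptors with the co-receptors Adgra2 and Reck, and Wnt7a and Wnt7b made by neural cells are the ligands known for that route. The panel holds many genes of this pathway beside markers of brain cell types.

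The coverslips carried 33519204 to 76555311 gene counts, the fewest on coverslip 1 and the most on coverslip 4, and blank barcodes, code words assigned to no gene that gauge misread molecules, made up 1.16% to 1.48% of counts. Cell names on coverslips 1 to 3 are running numbers and are shared for that reason; coverslip 4 shared 0 names with the others. The labels do not say whether coverslips came from separate animals, so p-values measure the spread between coverslips only.

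Astrocytes lay near vessels more often than other cells did. On coverslips 1 to 4, 9.45%, 8.99%, 11.8% and 10.9% of astrocytes were near, against 7.13%, 7.41%, 7.54% and 8.84% of the other cells that met the same Cldn5 limit. The share was higher for astrocytes on each coverslip, and the lowest astrocyte share exceeded the highest share of other cells. The means were 10.3% ± 1.30 and 7.73% ± 0.762 (SD, n = 4), with an exact two-sided permutation p of 0.13, the smallest that 4 pairs allow.

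Near astrocytes were also smaller and stood in other surroundings. Their mean volume was 851 ± 20.7 volume units against 964 ± 54.8 for far astrocytes (SD, n = 4; smaller on 4 of 4 coverslips, exact permutation p 0.13). Counts per cell were 258 ± 47.3 near and 257 ± 55.6 far (exact permutation p 0.625). Gene levels are given as counts per 1000 volume units. Near astrocytes had 5.41 ± 0.321 cells within 20 units and far astrocytes 3.74 ± 0.317. Of near astrocytes, 23.8% ± 4.73 lay within 200 units of the tissue edge, against 7.96% ± 1.09 of far ones. A border macrophage-type cell was any kept cell with at least 3 counts of Mrc1 or of Lyve1. An astrocyte holding such counts therefore counted as its own border cell. Such a cell lay within 50 units of 37.7% ± 2.52 of near astrocytes and of 10.6% ± 1.97 of far ones. The groups thus differ in crowding and in place as well as in distance to a vessel.

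The genes that chose the cells are described without a test. Slc1a3, the glutamate transporter GLAST, measured 19.0, 16.3, 18.2 and 18.6 counts per 1000 volume units near, and 20.4, 17.2, 19.4 and 19.7 far. Aqp4 measured 17.6, 13.2, 15.4 and 17.9 near and 11.4, 8.94, 9.30 and 11.8 far. Aqp4 was higher near on each coverslip without overlap of the groups, and Slc1a3 was slightly lower near on each.

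Cldn5, a tight-junction protein, and Pecam1, an endothelial adhesion protein, show how much endothelial signal was counted in astrocytes. Pecam1 measured 0.533 ± 0.0986 counts per 1000 volume units near, 0.161 ± 0.0268 far and 9.90 ± 2.27 in vessel cells. At least 1 Pecam1 count was found in 28.5% ± 4.09 of near and 12.8% ± 2.25 of far astrocytes, and at least 1 Cldn5 count in 33.4% ± 2.58 and 9.87% ± 1.91. The near excess of Pecam1 equalled 3.46% to 4.60% of a vessel cell's level, and this vessel share was used below to calculate what the same admixture would add to other genes. Cldn5 was not used for this because the selection caps it.

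The near-far difference reached many panel genes. Of the 136 genes tested, 47 were higher near (34.6%) and 30 were lower near (22.1%), by edgeR's quasi-likelihood test with coverslip as a block, an adjusted p under 0.05 and, in the higher group, a level above all 40 blanks on every coverslip. The lower group need not pass that limit: the far levels of 4 of the 47 higher genes (Mrc1, Lyve1, Trabd2b and Tmem119) lay under the highest far blank on 4 of 4 coverslips, and those of 13 did so on at least 1. Among the 13, Csf1r, Col4a6 and Gpc3 did so on 3 of 4. Of the 30 lower genes, the near level of Sfrp5 alone lay under the highest near blank, on 3 of 4 coverslips. Where this holds, the level of the lower group is not above the blanks and the size of the difference is uncertain. The median log2 difference, near minus far, over all 136 genes was 0.08. All 47 higher genes were higher on 4 of 4 coverslips, and for 21 of them every near value exceeded every far value. Of the 30 lower genes, 29 were lower on 4 of 4 coverslips and 0 had groups that did not overlap. The split moves with the scaling: 61.0% of calls were higher near per volume, but 37.1% when sums were scaled to library totals, which gave 33 higher and 56 lower genes and a median of -0.11. It was 47.6% with TMM factors, 45% with DESeq2's size factors and 39.0% with cell number as offset. Per volume but with near and far astrocytes matched on crowding, it was 46.3% (38 higher and 44 lower, median -0.08).

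Gfap, the astrocytic intermediate filament, was 3.5-fold higher in near astrocytes. On coverslips 1 to 4 it measured 26.8, 23.9, 24.8 and 32.2 counts per 1000 volume units near and 6.64, 7.22, 8.03 and 8.88 far. Every near value lay far above every far value, and the log2 difference was 1.81 ± 0.06 (SE, n = 4; edgeR adjusted p 8.6e-10). Vessel cells themselves held 3.82 ± 0.582, less than far astrocytes, and the vessel share would add 0.76% of the near excess. The difference was unevenly spread over cells: the median near astrocyte held 6 to 10 Gfap counts and the 90th percentile 56.2 to 80.4, against medians of 1 to 2 and 90th percentiles of 15.0 to 24.0 far. In the 8 sections taken apart by position, the Gfap difference ranged from 1.45 to 2.15.

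**Figure D1:**
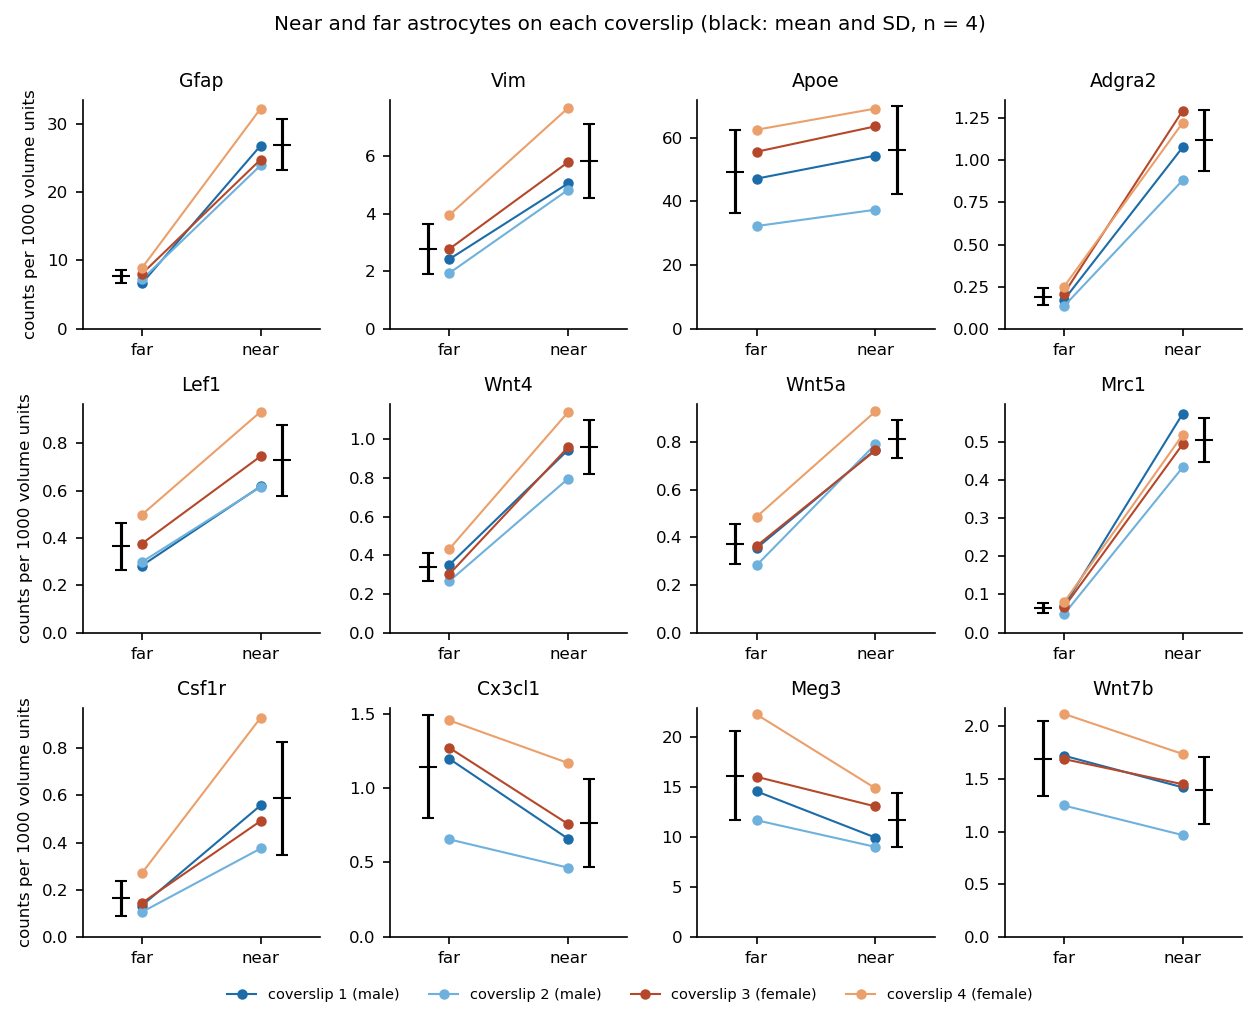
Levels of 12 genes in far and near astrocytes, in counts per 1000 volume units on a linear axis from 0; coloured points joined by a line are the 4 coverslips and black marks are the mean and SD. Gfap rises from 6.64 to 8.88 in far astrocytes to 23.9 to 32.2 in near ones, while Cx3cl1, Meg3 and Wnt7b are lower near on each coverslip.

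The other astrocyte markers moved little beside Gfap. Of the 4 astrocyte-list genes that the selection did not use, 3 were higher near and 1 lower, with a median of 0.09. Over all 136 genes, 34.6% were higher and 22.1% lower. Aldoc, a glycolytic enzyme, was higher by 0.11 ± 0.03, and the transcription factor Sox9 was lower, at -0.13 ± 0.03. Aldh1l1, a folate enzyme widely used as a pan-astrocyte marker, was called higher by only 0.08 ± 0.03 (edgeR adjusted p 0.049). The call was lost without coverslip 1, 2 or 3 (0.07, 0.08 and 0.06), and its sign turned under library totals (-0.11), TMM factors (-0.05) and an offset by cell number (-0.10). Apoe, the main lipid carrier made by astrocytes, was higher by 0.19 ± 0.03 (adjusted p 0.00018); under library totals it was at -0.00.

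Vim, an intermediate filament protein shared by immature astrocytes and vessel cells, measured 5.06, 4.83, 5.79 and 7.68 near and 2.42, 1.93, 2.77 and 3.95 far. The groups did not overlap, and Vim rose by 1.10 ± 0.05 on the log2 scale (adjusted p 2.0e-08). Vessel cells held 14.4 counts per 1000 volume units, and the vessel share would add 17.6% of the Vim excess. Glul and Id1 were singled out after their values were seen. Glul, the glutamine synthetase of astrocytes, was higher by 0.26 ± 0.03, and Id1, a transcriptional regulator induced by BMP signals, by 0.89 ± 0.04. Id1 was also high in vessel cells, at 5.13 against 1.92 near and 1.05 far.

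Levels changed stepwise with distance. Gfap averaged 32.8 ± 4.96 counts per 1000 volume units within 10 units of a vessel-cell centre, 24.0 ± 3.76 at 10 to 15 units, 16.0 ± 1.87 just outside the near limit at 15 to 25 units, 11.0 ± 0.873 at 25 to 40 and 8.08 ± 1.02 at 40 to 60 (SD, n = 4). Aqp4 followed the same order with a smaller span, from 18.5 ± 2.67 to 10.8 ± 1.41 over these bins. Pecam1 was at 0.253 ± 0.0414 at 15 to 25 units, above its far level of 0.161. With astrocytes at 15 to 25 units in place of the near group, the Gfap difference was 1.06 and 41 genes were higher and 13 lower.

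**Figure D2:**
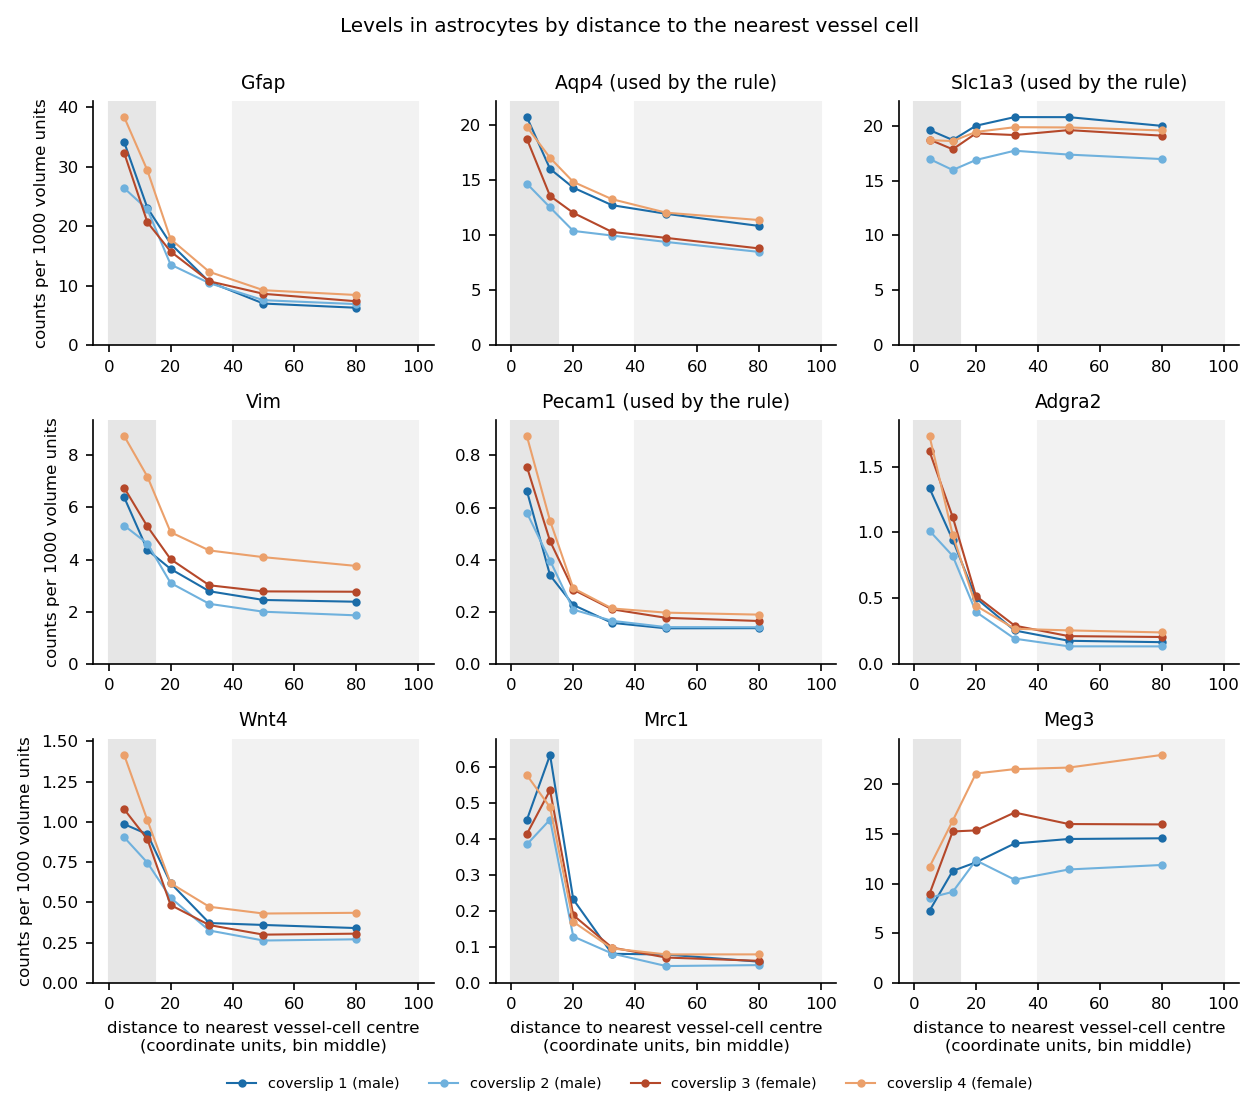
Levels of 9 genes in astrocytes, in counts per 1000 volume units on linear axes from 0, against distance to the nearest vessel-cell centre in coordinate units; each line is 1 coverslip, and grey bands mark the near and far ranges. Gfap, Aqp4, Vim, Adgra2 and Wnt4 are highest in the bin within 10 units, Mrc1 is highest at 10 to 15 units on 3 of 4 coverslips, and Meg3 is lowest within 10 units.

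Genes that mark vessel cells in an earlier clustering of these same samples were all higher near. All 6 (Adgra2, Tcf7, Lef1, Fzd6, Fzd4 and Pdgfrb) were called, with a median of 1.01, beside 34.6% higher over all genes. Since the list was chosen on these samples, it is not independent evidence of its direction. Adgra2, the adhesion receptor also called Gpr124, measured 1.08, 0.882, 1.29 and 1.22 near and 0.171, 0.134, 0.208 and 0.249 far. The groups did not overlap (log2 difference 2.57 ± 0.08, adjusted p 8.6e-10). Its level in vessel cells was 6.13, and the vessel share would add 24.8% of the near excess. The same share would add 30.4% of the excess of Tcf7 and 37.8% of that of Lef1, both transcription factors at the end of the Wnt route, 27.2% for the pericyte receptor Pdgfrb and 64.5% for the receptor Fzd6. For Fzd4, a frizzled receptor of brain endothelium, it would add 234% ± 171 (SD, n = 4), more than the whole excess. For Cspg4, a proteoglycan of oligodendrocyte precursors and pericytes, the mean of the percentages per coverslip was 130% ± 175 (SD, n = 4). That mean is unstable, because the Cspg4 excess on coverslip 1 was small, at 0.717 near against 0.696 far. The mean addition to Cspg4, 0.0833, was below its mean excess of 0.233. Cspg4 also stayed called higher under the place limits with the vessel share subtracted, which are described below.

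**Figure D3:**
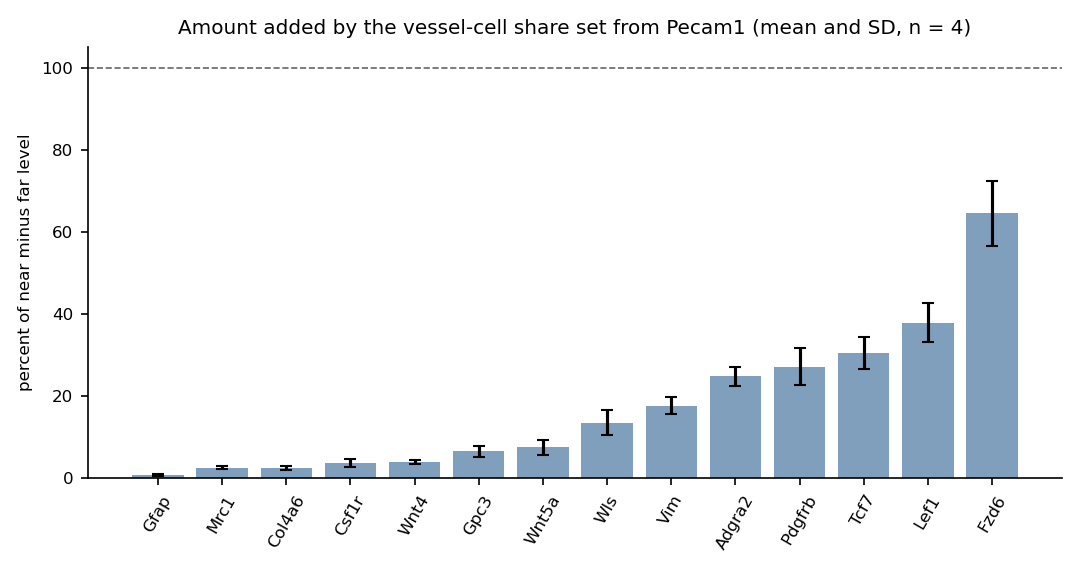
Amount that the vessel-cell share set from Pecam1 would add to the near level of 14 genes, as a percent of the near minus far level; bars are means and error bars SDs over 4 coverslips, and the dashed line is 100%. Gfap, Mrc1, Col4a6, Csf1r and Wnt4 stay under 5%, and Fzd6 reaches 64.5%.

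Subtracting the vessel share left 41 genes higher and 34 lower. Adgra2 then stood at 2.24, Lef1 at 0.71, Tcf7 at 1.00 and Pdgfrb at 0.53, while Fzd4 turned to -0.16. Fzd6 was at 0.46 (edgeR adjusted p 0.0019) and missed the call on the blank limit alone. Gfap was at 1.80. Vessel cells were defined by Cldn5 and Pecam1 alone, so the subtraction was set to endothelial signal. Signal of other vessel-wall cells was removed only as far as vessel cells held it, as with Pdgfrb at 4.60. The same share would add 237% ± 40.1 of the Cldn5 excess, which the selection caps, and 244% ± 151 of that of Sox7 (SD, n = 4). Sox7 was singled out after its values were seen. Whether the share is too large for other genes was not tested.

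Among Wnt ligands and the secretion genes Wls and Porcn, 3 of 19 tested genes were higher near, 3 were lower and 13 were not called. Over all 136 genes, 34.6% were higher and 22.1% lower. The median of the list was -0.02. Of the 13, some had an edgeR adjusted p under 0.05 and missed the call on the blank limit alone. These were Wnt6 (1.12), Wnt2b (0.74), Wnt5b (0.59) and Wnt9a (0.25), higher near, and Wnt3a (-0.23), lower. Wnt4 measured 0.944, 0.795, 0.958 and 1.14 near and 0.350, 0.266, 0.302 and 0.432 far, without overlap (log2 difference 1.52 ± 0.06, adjusted p 9.0e-09). Wnt5a, a ligand of the non-canonical routes, measured 0.767, 0.790, 0.764 and 0.927 near and 0.354, 0.283, 0.364 and 0.486 far (1.14 ± 0.08). Wls, which carries Wnt proteins to the cell surface, was higher by 0.90 ± 0.08. The ligands known to act on brain endothelium were lower near: Wnt7b at -0.29 ± 0.04 and Wnt7a at -0.18 ± 0.05, with overlapping groups. Neither was called away from border macrophage-type cells, where Wnt7b was at -0.08 and Wnt7a at 0.03, nor with 1 vessel cell within 30 units (-0.09 and 0.00). Wnt3 was also lower (-0.25 ± 0.08), but not called without coverslip 2 (-0.20) or coverslip 3 (-0.19).

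Of 18 receptor and co-receptor genes, 11 were higher near and 2 lower, with a median of 0.32, beside 34.6% higher and 22.1% lower over all 136 genes. Of the 5 not called, Ror1 was at 1.13 ± 0.07 with groups that did not overlap (edgeR adjusted p 2.6e-07). It missed the call on the blank limit alone. Beyond Adgra2 and Fzd6, the tyrosine kinase-like receptors Ror2 (0.68 ± 0.07) and Ptk7 (0.56 ± 0.05), the Adgra2 partner Reck (0.54 ± 0.07) and the co-receptor Lrp5 (0.48 ± 0.05) were higher. Ror2 and Lrp5 had groups that did not overlap. Ror2 was not called away from border macrophage-type cells (0.11, edgeR adjusted p 0.25) or with 1 vessel cell within 30 units (0.02, 0.85). Lrp5 stayed called under both (0.295 and 0.296). Fzd7, Fzd5, Fzd1, Fzd10 and Fzd4 rose by 0.19 to 0.33, and Fzd9 (-0.26 ± 0.05) and Fzd2 (-0.14 ± 0.04) fell. Under library totals Fzd5 (0.13), Fzd10 (0.07) and Fzd4 (-0.00) were not called. When near and far astrocytes were matched on squares of side 500, Fzd1 (0.04), Fzd10 (0.03) and Fzd4 (0.14) were not called and Fzd2 turned to 0.06. The call of Fzd4 was also lost without coverslip 1, 2 or 3 (0.18, 0.15 and 0.18), and that of Fzd2 without coverslip 4 (-0.13). Away from border macrophage-type cells, Fzd1 (0.20) was the 1 of these 7 still called.

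The TCF/LEF factors carry the Wnt signal to DNA. Of these 4 genes, 3 were higher near and 1 lower, beside 34.6% and 22.1% over all genes. Lef1 measured 0.618, 0.616, 0.746 and 0.934 near and 0.284, 0.299, 0.376 and 0.499 far (1.01 ± 0.06), Tcf7 was higher by 1.29 ± 0.07 and Tcf7l1 by 0.36 ± 0.04. Tcf7l2 was lower (-0.15 ± 0.04). Its call was lost with far astrocytes at 60 to 100 units (-0.05, edgeR adjusted p 0.46) and away from the edge (-0.05, 0.32). It was also lost away from border macrophage-type cells (-0.02, 0.80) and when matched on squares of side 500 (-0.10, 0.059). Inside the cell, 0 of 10 pathway genes were higher and 3 were lower, beside 34.6% and 22.1% over all genes. Among the 3 were the destruction complex scaffold Apc (-0.37 ± 0.03) and the kinase Gsk3b (-0.25 ± 0.04).

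Secreted and surface modulators went both ways. Of 7 antagonists, 1 was higher and 2 lower, beside 34.6% and 22.1% over all genes. Trabd2b, a protease that cleaves Wnt proteins, was higher (1.80 ± 0.08) from a far level of 0.0735 to 0.108, under the highest far blank. The secreted decoys Sfrp5 (-0.45 ± 0.08) and Sfrp2 (-0.19 ± 0.07) were lower. Trabd2b was at 0.23 and not called under the place limits with the vessel share subtracted, which are described below. Sfrp2 was not called without coverslip 2, 3 or 4 (-0.17, -0.17 and -0.21). The near level of Sfrp5, 0.130 to 0.239, lay under the highest near blank on 3 of 4 coverslips, so the size of its drop is uncertain. Its call was lost away from border macrophage-type cells (-0.195, edgeR adjusted p 0.116) and with 1 vessel cell within 30 units (-0.232, 0.163). Of 10 glypicans and syndecans, heparan sulfate carriers of the cell surface, 5 were higher and 3 lower, beside 34.6% and 22.1% over all genes. Gpc3 measured 0.494, 0.519, 0.613 and 0.622 near and 0.135, 0.0977, 0.173 and 0.244 far, without overlap (1.84 ± 0.14). Gpc6, Sdc2, Sdc4 and Sdc1 were higher by 0.24 to 0.28, and Sdc1 was not called without coverslip 1 (0.24) or coverslip 3 (0.17). With cell number as offset, Gpc6 (0.10), Sdc2 (0.10), Sdc4 (0.09) and Sdc1 (0.06) were not called. Under library totals Sdc2 (0.09), Sdc4 (0.08) and Sdc1 (0.05) were not called. Sdc3, a neuronal syndecan, was lower (-0.42 ± 0.03), as were Gpc5 (-0.32 ± 0.03) and Gpc1 (-0.14 ± 0.04). Gpc1 was the 1 called gene with the opposite sign on 1 coverslip (0.02 on coverslip 3) and in 2 of 8 sections, and its call was lost without coverslip 1 (-0.11, adjusted p 0.12) or coverslip 4 (-0.12, adjusted p 0.061). Col4a6, a basement membrane collagen chain on none of these lists, was higher by 1.95 ± 0.07.

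Markers of other cell types moved with these groups. Both border macrophage markers were higher near, beside 34.6% over all genes, and their summed level was 0.762 to 0.910 near against 0.141 to 0.184 far. Mrc1, the mannose receptor of border macrophages, measured 0.573, 0.432, 0.493 and 0.517 near and 0.0695, 0.0480, 0.0662 and 0.0791 far (2.94 ± 0.09, adjusted p 8.6e-10), and Lyve1, a hyaluronan receptor, was higher by 1.88 ± 0.10. The far levels of both lay under the highest far blank on each coverslip, so these differences start from a level that is not above background. At least 1 Mrc1 count was present in 11.7% ± 1.32 of near and 5.20% ± 0.614 of far astrocytes. Vessel cells held less Mrc1, at 0.302, than near astrocytes, and the vessel share would add 2.58% of its excess.

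Of 7 microglial genes, 5 were higher near and 0 lower, beside 34.6% and 22.1% over all genes, with a summed level of 1.86 to 3.86 near and 0.850 to 1.71 far. Csf1r, the receptor that maintains microglia and macrophages, was highest of them (1.87 ± 0.07), followed by Tmem119 (1.57 ± 0.07), the fractalkine receptor Cx3cr1 (1.19 ± 0.08) and the complement gene C1qa (1.04 ± 0.07). The far level lay under the highest far blank on 3 of 4 coverslips for Csf1r and on 4 of 4 for Tmem119. The sizes of these 2 differences, and so their rank, are uncertain. Ptprc was not called. P2ry12 was at 0.97 ± 0.09 with groups that did not overlap (adjusted p 2.6e-06), and missed the call on the blank limit alone. Of 4 genes of the oligodendrocyte lineage, Pdgfra (0.76 ± 0.08) and Cspg4 (0.40 ± 0.10) were higher and 0 lower, beside 34.6% and 22.1% over all genes. Vessel cells held Cspg4 at 2.18, against 0.885 near. The summed level of the 4 genes was 2.27 to 4.65 near and 1.67 to 3.13 far. No marker list was at 0 in either group, and the part of such cells in the results above was not tested.

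Of 11 neuronal genes tested, 7 were lower near, 0 were called higher and 4 were not called, beside 22.1% lower and 34.6% higher over all genes. The median was -0.24, and their summed level was 14.4 to 24.3 near and 18.1 to 34.2 far. Bcl11b, a transcription factor of deep-layer projection neurons, measured 0.691, 0.527, 0.704 and 0.995 near and 1.14, 0.936, 1.15 and 1.5 far (-0.71 ± 0.05, adjusted p 6.3e-07). Meg3, a noncoding RNA abundant in neurons, measured 9.92, 8.98, 13.0 and 14.9 near and 14.5, 11.6, 16.0 and 22.2 far (-0.45 ± 0.05). Both were lower near on each coverslip, although the groups overlapped: the far value of coverslip 2 lay below the near value of coverslip 4. Gad1, an enzyme of GABA synthesis, was at -0.37 ± 0.06, and Syt6 and Sst, markers of cortical neuron classes, were at -0.43 ± 0.07 and -0.41 ± 0.10. Gad1 was above 0 in 1 of 8 sections (0.38) and not called when matched on squares of side 500 (-0.14, edgeR adjusted p 0.055). Syt6 was not called away from border macrophage-type cells (-0.19, edgeR adjusted p 0.079), nor under the place limits with the vessel share subtracted (-0.12, 0.31). Sst was above 0 in 3 of 8 sections (-1.29 to 0.38), was not called away from the edge (-0.16, adjusted p 0.26) and was at 0.08 under the place limits with the vessel share subtracted. Pvalb, a marker of another interneuron class, was at 0.38 ± 0.08 and higher on 4 of 4 coverslips (adjusted p 0.0015), but missed the blank limit.

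Cx3cl1, the gene of the neuronal ligand fractalkine, which the Cx3cl1(-/-) section of each coverslip lacks by genotype, measured 0.660, 0.465, 0.759 and 1.17 near and 1.2, 0.655, 1.27 and 1.46 far. It was lower near on 4 of 4 coverslips (-0.60 ± 0.08, edgeR adjusted p 8.7e-05). The coverslip sums pool both sections, so they also depend on how near and far astrocytes divide between genotypes, which was not tested. With sums per section, each section paired with itself, the difference was -0.45 ± 0.10 (edgeR adjusted p 0.0017). That fit includes the sections that lack the gene by genotype. The 2 sections stood at -0.17 and -0.79 on coverslip 1, and at -0.03 and -0.64 on coverslip 2. On coverslip 3 they stood at 0.29 and -0.68, and on coverslip 4 at -0.24 and -0.45. Which of each pair is Cx3cl1(-/-) is not marked, so the 8 sections are not replicates of a Cx3cl1 difference. Prkce, a protein kinase C isoform, was lower by a like amount (-0.53 ± 0.04).

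The differences were smaller away from border cells, a selection that also drops astrocytes themselves holding at least 3 counts of Mrc1 or of Lyve1. When near and far astrocytes with a border macrophage-type cell within 50 units were left out, 4428 near and 27962 far astrocytes remained, 31 genes were higher (22.8%) and 10 lower (7.35%). Of these, 29 and 10 had been called in the same direction among all cells. Gfap then measured 12.2, 13.5, 14.4 and 16.7 near and 6.17, 6.99, 7.71 and 8.29 far, still without overlap, and its log2 difference was 0.96 in place of 1.81. Wnt4 measured 0.360, 0.365, 0.373 and 0.373 near and 0.334, 0.258, 0.285 and 0.427 far, which overlap, and its difference was 0.19, not called.

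Adgra2 kept 1.55 away from border cells, with 0.529, 0.461, 0.628 and 0.485 near against 0.160, 0.129, 0.197 and 0.241 far. Lef1 kept 0.65 and Tcf7 0.75, Wnt5a 0.38 and Gpc3 0.68. Mrc1 and Lyve1 stood at 0.39 and 0.02, but the selection used both, so these values are a description.

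When astrocytes within 200 units of the tissue edge were also left out and the vessel share was subtracted, 14 genes were higher (10.3%) and 10 lower (7.35%), all of them called in the same direction among all cells. Gfap had the largest difference among those 24, at 0.85 (edgeR adjusted p 2.7e-09). Vim (0.30), C1qa (0.30), Pdgfrb (0.37), Sdc4 (0.22), Lrp5 (0.15), Ptk7 (0.15), Tcf7l1 (0.15) and Apoe (0.11) also stayed called. Bcl11b (-0.37), Cx3cl1 (-0.28), Prkce (-0.27), Meg3 (-0.21), Sdc3 (-0.20), Gad1 (-0.17) and Apc (-0.17) stayed lower.

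Several of the genes that differed most among all cells were not called there. Their values also depend on the size of the vessel share, which was not tested. Adgra2 was at 0.44 (adjusted p 0.055), Csf1r at 0.77 (0.054), Tcf7 at 0.16, Lef1 at 0.12 and Fzd6 at 0.10. Wnt4 was at -0.21. Wnt7b and Gpc5, called lower among all cells, stood at -0.06 and -0.03.

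**Figure D4:**
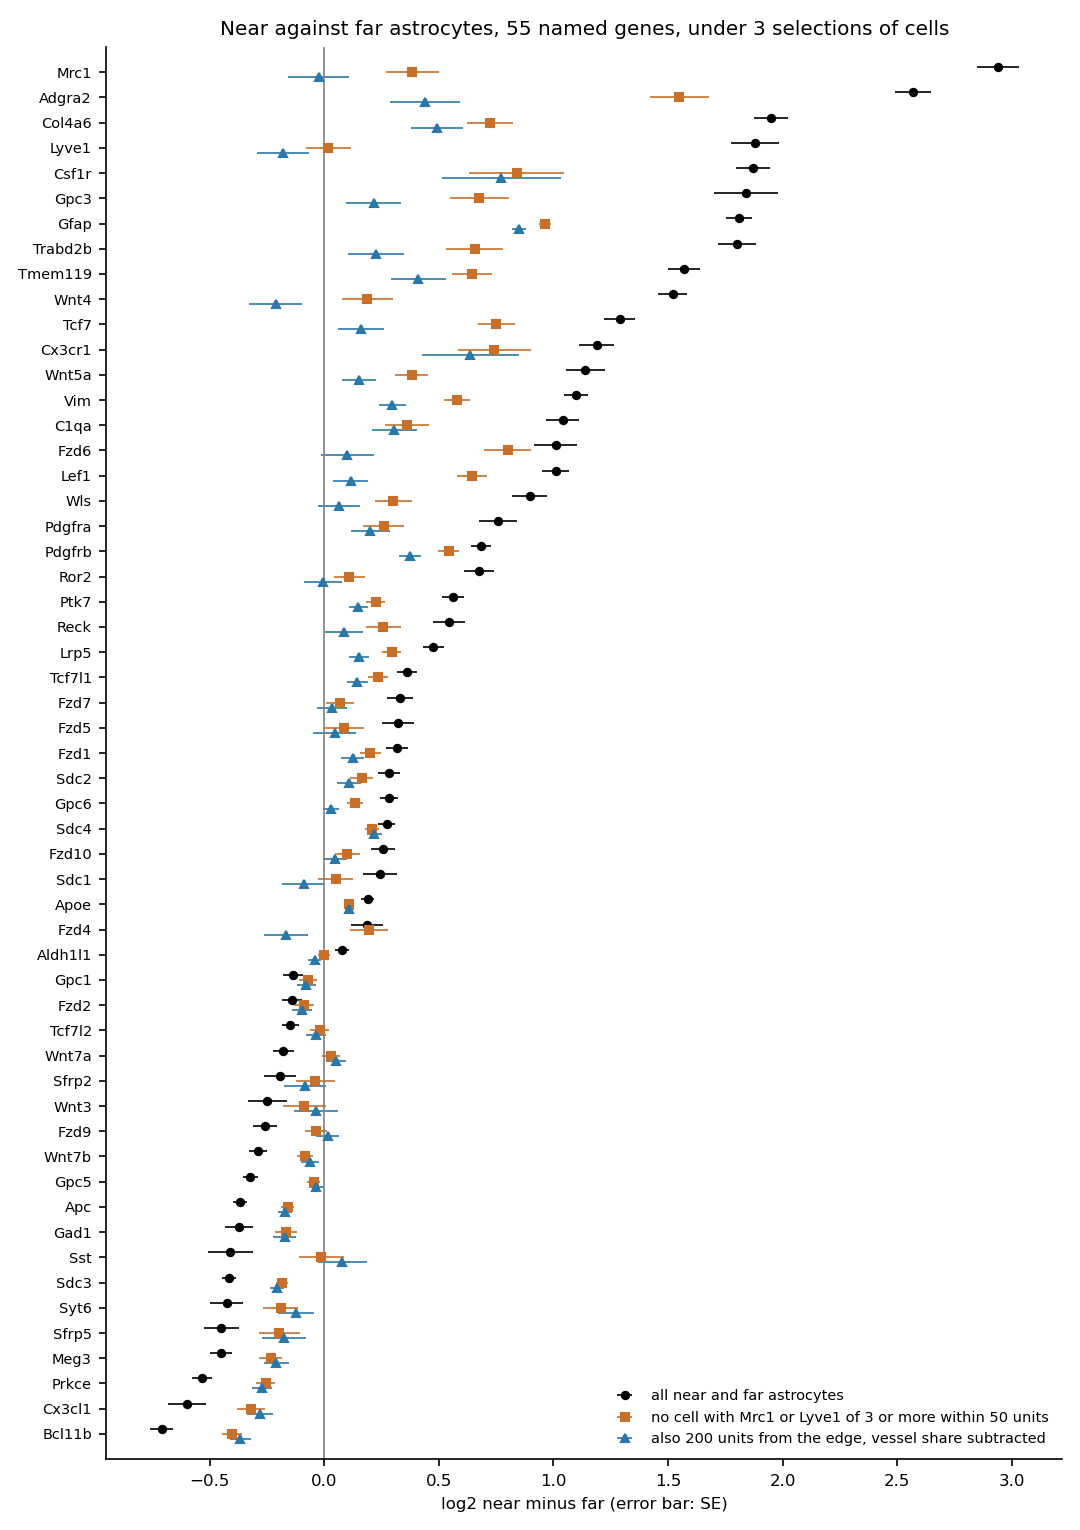
Log2 difference, near minus far, of 55 named genes with its SE: black circles are all near and far astrocytes, orange squares leave out astrocytes within 50 units of a border macrophage-type cell, and blue triangles also leave out the 200 units next to the tissue edge and subtract the vessel share. Gfap goes from 1.81 to 0.96 to 0.85, whereas Mrc1 goes from 2.94 to 0.39 to -0.02 and Wnt4 from 1.52 to 0.19 to -0.21.

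The near-far difference was also compared between the 2 female and the 2 male coverslips. By edgeR's interaction test, 0 of 136 genes passed an adjusted p of 0.05, and 6 had an unadjusted p under 0.05. DESeq2 with volume offsets called 1 gene. The smallest p was that of Cspg4, whose difference was 0.55 ± 0.12 higher on female coverslips (edgeR adjusted p 0.12). For Gfap the differences per coverslip were 2.01 and 1.73 in males and 1.62 and 1.86 in females, which overlap.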

How the data were processed

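The authors deposited, per coverslip, a table of whole-number counts with 1 row per segmented cell and columns for 140 genes, 40 blank barcodes and the cell's volume and centre. Software for decoding and segmentation is not given in the sources used here. The selection of cells and the gene lists were chosen with earlier results of these data known.

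Cells with at least 20 gene counts were kept. Counts were summed over near and over far astrocytes per coverslip, and the 8 sums were fitted with edgeR 4.0.16 (R 4.3.3; quasi-likelihood test, coverslip as block, log summed volume as offset, Benjamini-Hochberg adjustment over 136 genes). Slc1a3, Aqp4, Cldn5 and Pecam1 chose the cells and were not tested. The coverslip block pairs near and far sums of the same 2 sections; replicate numbers of male and female coverslips pair nothing. Single values per coverslip were compared with an exact permutation test of paired differences. Sections were separated by position (squares of side 100 with at least 4 cells), without genotype. The fit was tested on simulated data.

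Named genes were, among called genes with 1 direction on 4 of 4 coverslips, the 12 with the largest difference each way, together with every called member of the Wnt ligand, receptor, TCF/LEF, antagonist and glypican lists whatever its direction on single coverslips, and 13 fixed genes; exceptions are marked as chosen after their values were seen. Alternatives covered scaling, DESeq2 1.42.0, distances, cell limits, place, crowding and single coverslips. Those that limit border cells, edge depth and vessel-cell number were chosen after seeing the data.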

Additional observations from a re-analysis of the deposited data

Results flagged for a closer look

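Blank barcodes, which no comparison above uses as a gene, were not level between near and far astrocytes: 13 of the 40 were higher near on 4 of 4 coverslips, and 4 were lower near on 4 of 4. Summed over the 40 blanks, the level was 3.16 ± 0.827 counts per 1000 volume units near and 2.94 ± 0.708 far (SD, n = 4; higher near on 4 of 4 coverslips, exact permutation p 0.13). The blank with the largest difference, Blank-3, measured 0.165 ± 0.0449 near and 0.108 ± 0.0283 far. The median log2 difference over the blanks was 0.03. The highest blank reached 0.141 to 0.276 counts per 1000 volume units near and 0.124 to 0.264 far, depending on the coverslip. By Dixon's outlier ratio, no coverslip stood apart from the other 3 in any of the 62 values tested for that. With 4 coverslips the ratio flags only an extreme value, so this does not show that the coverslips are alike.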

How the results depend on the processing

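Counts of higher and lower genes were 47 and 30. They were 33 and 56 with library totals, 30 and 47 with cell number as offset, 29 and 10 against a 1.2-fold threshold, and 20 and 0 with no replicate block (the coverslip pairing left out). They were 41 and 13 for astrocytes at 15 to 25 units, 35 and 19 for astrocytes without Cldn5 and Pecam1 counts, 43 and 19 away from the edge, 31 and 10 away from border cells, 25 and 13 with 1 vessel cell within 30 units, and 14 and 10 under both place limits with the vessel share subtracted. Leaving out 1 coverslip gave 43 to 52 higher and 25 to 28 lower genes. The sex interaction called 0 genes, but 1 under library totals, 1 with DESeq2, and 0 to 3 without 1 coverslip, where a lone coverslip is assumed to vary like the others. Astrocytes exceeded other cells by 2.55 percentage points within 15 units, by 4.19 within 20, and by 1.98 to 2.87 without 1 coverslip. Counts per cell differed by 0.935, by -2.75 matched on place and by -3.72 to 5.35 without 1 coverslip.

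Gfap kept its direction and its call under every alternative run. Signs turned as follows. At 15 to 25 units, Sst was 0.04, Wnt3 0.09, Tcf7l2 0.01, Gpc1 0.08 and Aldh1l1 -0.05. Under both place limits with the vessel share subtracted, Sst was 0.08, Mrc1 -0.02, Lyve1 -0.18, Wnt4 -0.21, Wnt7a 0.05, Fzd4 -0.17, Fzd9 0.01, Ror2 -0.01, Sdc1 -0.09 and Aldh1l1 -0.04. Away from border cells, Wnt7a was 0.03 and Aldh1l1 -0.00; with 1 vessel cell, Wnt7a was 0.00, Tcf7l2 0.02 and Aldh1l1 -0.01. Matching on squares gave Fzd2 0.06, and matching on crowding Sdc1 -0.03. Library totals gave Fzd4 -0.00, Apoe -0.00 and Aldh1l1 -0.11. Aldh1l1 was -0.05 with TMM, -0.10 per cell, -0.06 with DESeq2 size factors and -0.03 away from the edge. Fzd4 was -0.16 after the subtraction alone. The cause was not tested.

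Limits: 4 coverslips bound every test, low genes such as Mrc1 hold under 1 count per near astrocyte, and the unit of distance is not given. The place limits used counts of Mrc1 and Lyve1, those of the astrocyte itself included, and were set after seeing the data.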

Other observations

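Genes on none of the lists also differed, named here after their values were seen. Emx2, a transcription factor of the cortical primordium, was higher near by 0.24 ± 0.07 on the log2 scale, and Tcf3, a basic helix-loop-helix factor, by 0.37 ± 0.05 (edgeR, SE, n = 4). Sox2, a transcription factor of neural progenitors and astrocytes, was lower near at -0.18 ± 0.03, the synaptic adhesion gene Nlgn2 at -0.13 ± 0.03 and the imprinted gene Peg3 at -0.21 ± 0.05.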
